A study of Mus musculus with 14 samples.

Results

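Perineuronal nets are lattices of extracellular matrix around neurons, and 9 genes of that matrix were followed here through mouse cortex with and without Fmr1. The genes were taken by exact symbol from a count table of 23412 genes, and all 9 were found. They are the 4 lecticans Acan, Bcan, Ncan and Vcan, the 3 link proteins Hapln1, Hapln2 and Hapln4, the cross-linker Tnr and the protease Mmp9. The control mice carried floxed Rpl22 alleles and a CamK-driven Cre (Rpl22flox/flox;CamKCre+), and the Fmr1 knock-out (KO) mice carried them too (Fmr1X-Y; Rpl22flox/flox;CamKCre+). The age of the mice is not given in the sources used here. Floxed Rpl22 is the RiboTag allele, and CamK promoters drive Cre mainly in excitatory neurons. Both assays used whole lysates per the labels' protocols, with no pull-down of tagged ribosomes named, and markers of glia and interneurons were detected in both. RNA-seq was available from 4 controls (mice 1, 3, 6 and 8) and 4 knock-outs (mice 2, 4, 5 and 7). Footprints, the mRNA fragments that ribosomes protect from nuclease, were sequenced from 3 controls (mice 1, 3 and 9) and 3 knock-outs (mice 2, 4 and 10).

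In a perineuronal net, long hyaluronan chains at the cell surface bind the globular heads of lecticans, which are chondroitin sulfate proteoglycans. Link proteins lock that bond, and tenascin-R, the product of Tnr, joins lectican tails to each other. In cortex the nets are best known around fast-spiking parvalbumin interneurons, where they stabilise synapses as critical periods close. Mmp9 encodes a secreted gelatinase that cleaves matrix, and its mRNA has been reported as a binding partner of FMRP, the RNA-binding protein made from Fmr1.

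RNA libraries held between 8847547 and 11371851 counts, and footprint libraries between 4124065 and 6033030. The targeted gene, Fmr1, was at 6.57% of control in footprints and 26.2% in RNA. All 8 excitatory neuron markers of the cortex check were detected, and no gene of the cell type lists in the table was at 0 in every library. Among the RNA libraries, those of KO mice 2, 4 and 7 differed from each other by little more than counting noise (chi-square divided by its degrees of freedom, 1.18 to 1.32), against 5.64 to 6.02 for each of them with KO mouse 5. The labels give these 3 libraries different mouse numbers, but whether they came from separate animals cannot be told from the counts, and if they did not, n is smaller and the p-values too low for RNA and TE. Control mice 1 and 3 were at 1.99, the other control pairs at 4.03 to 11.8 and the footprint pairs at 1.15 to 1.42. The footprint pairs were thus about as near to counting noise as the RNA libraries of KO mice 2, 4 and 7. Whether the footprint libraries came from separate animals cannot be told from the counts either, and the same limit holds for their p-values. The spread between libraries beyond counting noise, as edgeR's biological coefficient of variation, was 0.0211 in footprints and 0.0770 in RNA. CPM is a gene's count relative to the TMM-scaled size of its library, and a gene is described as rising or falling where edgeR's quasi-likelihood test gave a Benjamini-Hochberg adjusted p under 0.05 over all genes tested.

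The lecticans and link proteins lie beside each other in the mouse genome. In the RefSeq gene order of GRCm38.p6, no gene starts between Hapln4 and Ncan on chromosome 8, between Hapln2 and Bcan on chromosome 3, or between Hapln3 and Acan on chromosome 7. A single non-coding gene starts between Hapln1 and Vcan on chromosome 13. Hapln3 is the remaining link protein gene and is given below for this pairing only. Promoters, 250 bases before to 50 after the start, were present in the RefSeq table for 7 of the 9 genes, and Hapln4 and Mmp9 are named only. GC content was 74.0% in Acan, 64.0% in Bcan, 61.0% in Vcan and 56.7% in Ncan, against 54.3% in Hapln1, 52.0% in Hapln2, 48.0% in Tnr and a median of 52.7% over all promoters. Both strands were searched for 6 motifs: the GC box (GGGCGG), the AP-1 site (TGANTCA), the CRE (TGACGTCA), the E-box (CACGTG), an EGR site (GCGGGGGCG) and the TATA box (TATAAA). The GC box and the EGR site can overlap.

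A GC box was found in each of the 4 lectican promoters, 3 of them in Acan, 2 in Vcan and 1 each in Bcan and Ncan, while 35.7% of all 32851 promoters hold at least 1. None was found in the windows of Hapln1, Hapln2 or Tnr. A match to the TATA box was found in Ncan only (13.6% of all promoters), and it lay on the strand opposite to the gene's. The other 4 motifs were in none of the 7 windows, against 7.81% of all promoters for AP-1, 1.79% for the CRE, 7.15% for the E-box and 2.91% for EGR. Below are the promoters of a pair of lecticans with such matches and of the members with a promoter entry whose RNA passed the test, 5′ to 3′ on the gene's strand, with motif matches in capitals (Hapln1 and Tnr have none). They are Acan (chr7:79052976-79053275, plus strand), Ncan (chr8:70120795-70121094, minus strand), Hapln1 (chr13:89540386-89540685, plus strand) and Tnr (chr1:159523519-159523818, plus strand), all in GRCm38.p6.
Acan: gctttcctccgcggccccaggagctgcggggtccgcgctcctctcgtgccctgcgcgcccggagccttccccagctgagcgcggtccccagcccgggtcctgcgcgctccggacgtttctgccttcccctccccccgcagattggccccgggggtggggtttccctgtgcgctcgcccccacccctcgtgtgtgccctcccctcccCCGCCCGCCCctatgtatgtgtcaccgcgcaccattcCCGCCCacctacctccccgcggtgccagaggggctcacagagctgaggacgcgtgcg
Ncan: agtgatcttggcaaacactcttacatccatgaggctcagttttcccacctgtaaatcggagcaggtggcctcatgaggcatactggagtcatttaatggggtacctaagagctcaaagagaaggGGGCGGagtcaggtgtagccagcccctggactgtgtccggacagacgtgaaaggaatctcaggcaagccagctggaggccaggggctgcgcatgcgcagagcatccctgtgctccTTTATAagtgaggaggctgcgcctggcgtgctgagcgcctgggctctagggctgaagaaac
Hapln1: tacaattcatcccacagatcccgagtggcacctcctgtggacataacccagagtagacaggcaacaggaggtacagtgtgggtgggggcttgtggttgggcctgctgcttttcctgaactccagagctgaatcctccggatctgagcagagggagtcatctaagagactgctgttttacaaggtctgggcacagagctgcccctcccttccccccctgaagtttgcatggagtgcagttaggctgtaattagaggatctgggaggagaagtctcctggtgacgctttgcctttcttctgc
Tnr: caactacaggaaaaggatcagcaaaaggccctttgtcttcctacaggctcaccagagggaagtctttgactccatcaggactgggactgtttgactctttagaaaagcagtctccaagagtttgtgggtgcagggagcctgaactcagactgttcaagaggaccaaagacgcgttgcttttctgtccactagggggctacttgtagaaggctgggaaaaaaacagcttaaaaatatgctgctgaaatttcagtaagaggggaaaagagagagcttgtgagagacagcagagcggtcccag

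Ribosome footprints of 3 lecticans and of Tnr fell in KO cortex, those of Hapln4 rose, and those of Ncan, Hapln1 and Hapln2 did not pass the test. Of 9 members 8 had enough footprints to be tested, and 5 of those were called, 4 lower and 1 higher, against 25.5% of all 12158 genes tested (13.6% lower and 11.9% higher). The median log2 fold change of the 8 was -0.22, against 0.0055 over all genes tested. The same 5 genes were those whose libraries did not overlap between genotypes, which held for 37.3% of all genes tested (18.1% with KO higher and 19.2% with KO lower). In RNA all 9 members were tested and 3 were called, Hapln1 and Hapln4 higher and Tnr lower, against 7.41% of 13507 genes (3.53% higher and 3.88% lower). Those 3 and Ncan had RNA libraries that did not overlap, which held for 15.1% of all genes tested (7.10% with KO higher and 7.97% with KO lower). The plot of CPM per library shows each value behind these counts. These are bulk libraries, in which fewer cells of a type and less RNA per cell cannot be told apart.

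**Figure D1:**
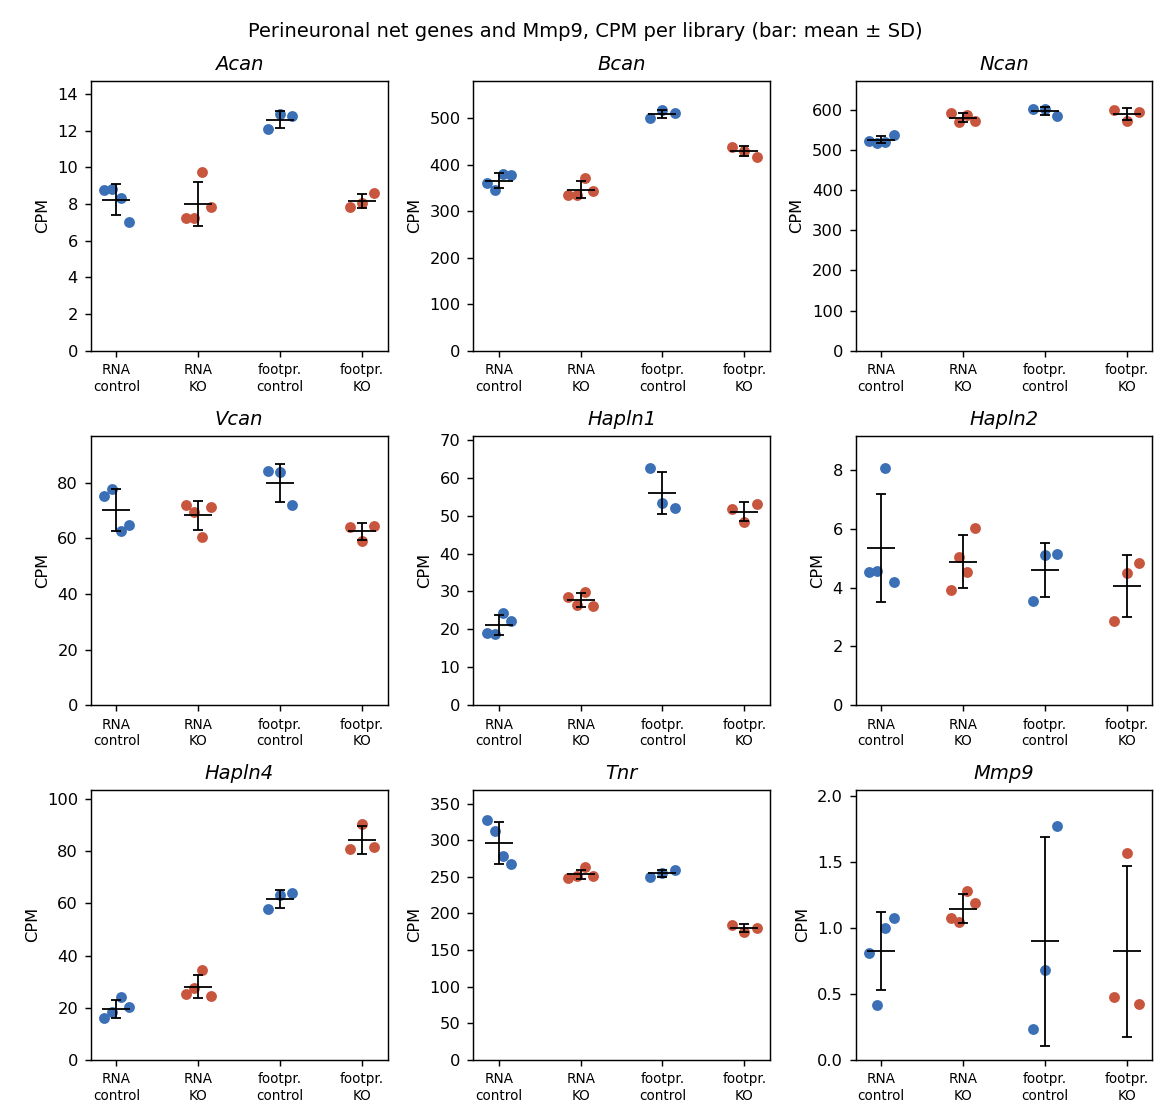
Each panel plots 1 gene, with CPM on the y axis and 1 point per library (blue, control; red, KO) for RNA (4 libraries per genotype) and footprints (3 per genotype); bars give the mean ± SD. The footprint points of Acan, Bcan, Vcan and Tnr lie lower in all KO libraries than in any control, and those of Hapln4 higher.

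Aggrecan (Acan), the lectican most tied to nets around parvalbumin cells, fell to 64.9% of control in footprints. Its footprints were at 12.1, 12.9 and 12.8 CPM in control mice 1, 3 and 9 and at 7.85, 8.08 and 8.61 CPM in KO mice 2, 4 and 10. No KO library reached the lowest control, with a log2 fold change of -0.62 ± 0.18 (SE; edgeR, adjusted p = 0.00507). These levels rest on 51 to 76 counts per control library and 33 to 41 per KO library, and with DESeq2 the adjusted p was 0.0506. Acan RNA was at 8.77, 8.82, 8.30 and 7.02 CPM in control mice 1, 3, 6 and 8 and at 7.23, 7.23, 9.77 and 7.81 CPM in KO mice 2, 4, 5 and 7. The genotypes overlapped fully in RNA, with the highest value in KO mouse 5 and the lowest in control mouse 8 (log2 fold change -0.047 ± 0.14 SE, adjusted p = 0.874, edgeR).

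Brevican (Bcan), a short lectican of adult brain made largely by glia, fell in footprints as well. Its footprints were at 501, 517 and 510.3 CPM in control mice 1, 3 and 9 and at 438, 429.8 and 417 CPM in KO mice 2, 4 and 10. All KO libraries lay lower, at 84.0% of control (log2 fold change -0.25 ± 0.030 SE, adjusted p = 4.78e-11, edgeR). Its RNA was at 361, 345, 381 and 377 CPM in control mice 1, 3, 6 and 8 and at 334, 335, 372 and 344 CPM in KO mice 2, 4, 5 and 7. KO mouse 5 sat among the controls, and the difference did not pass the test (-0.079 ± 0.055 SE, adjusted p = 0.425, edgeR).

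Versican (Vcan), a large lectican that oligodendrocyte precursors express in adult brain, also fell in footprints. Values were 84.0, 83.6 and 71.9 CPM in control mice 1, 3 and 9 and 64.0, 59.0 and 64.4 CPM in KO mice 2, 4 and 10. Control mouse 9 was the nearest to the KO libraries but still above them (log2 fold change -0.35 ± 0.072 SE, adjusted p = 6.75e-05, edgeR). Vcan RNA, at 75.3, 77.8, 62.7 and 64.8 CPM in control mice 1, 3, 6 and 8 and 71.8, 69.5, 60.5 and 71.2 CPM in KO mice 2, 4, 5 and 7, overlapped between genotypes (-0.039 ± 0.082 SE, adjusted p = 0.823, edgeR). Of 9 markers of oligodendrocyte precursors, 5 fell in footprints and none rose. The summed level of the 9 was 653 to 665 CPM in controls and 518 to 542 CPM in KO mice. In RNA 1 of 9 fell, and the sum was 327 to 360 CPM in controls and 298 to 320 CPM in KO mice. Among them Pdgfra, the growth factor receptor that defines these cells, fell by 0.39 ± 0.052 on the log2 scale in footprints (edgeR, adjusted p = 1.55e-09). Its RNA fell by 0.27 ± 0.057 (edgeR, adjusted p = 0.0117), and no other marker was called in both assays. In footprints Gpr17 (-0.44 ± 0.054, adjusted p = 1.06e-10, edgeR) and Cspg4 (-0.41 ± 0.069, adjusted p = 8.54e-07, edgeR) fell further. Sox10 fell in footprints (-0.38 ± 0.079, adjusted p = 6.59e-05, edgeR) but was at 0.22 ± 0.073 in RNA (adjusted p = 0.0766, edgeR). The part of these cells in the Vcan result was not tested.

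Neurocan (Ncan), a lectican best known from the developing brain, was not called in either assay. Its footprints were at 601, 602 and 584 CPM in control mice 1, 3 and 9 and at 600.6, 572 and 594 CPM in KO mice 2, 4 and 10, with full overlap (log2 fold change -0.017 ± 0.028 SE, adjusted p = 0.726, edgeR). Its RNA was at 523, 518, 521 and 538 CPM in control mice 1, 3, 6 and 8 and at 592, 569.8, 587 and 573 CPM in KO mice 2, 4, 5 and 7. Every KO library was above every control in RNA, but the difference of 0.14 ± 0.047 (SE) missed the threshold (adjusted p = 0.0771, edgeR). It passed with DESeq2 (adjusted p = 0.0177) and without control mouse 8 (adjusted p = 0.0328, edgeR).

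Tnr, made mainly by oligodendrocytes and some interneurons, fell in footprints with the lowest adjusted p of the members. Its footprints were at 250.25, 255 and 259.8 CPM in control mice 1, 3 and 9 and at 185, 174 and 180.5 CPM in KO mice 2, 4 and 10. The genotypes were far apart relative to their spread, with KO mice at 70.5% of control (log2 fold change -0.50 ± 0.041 SE, adjusted p = 7.01e-19, edgeR). Tnr RNA was at 327, 312, 279 and 267 CPM in control mice 1, 3, 6 and 8 and at 249, 251, 263 and 251 CPM in KO mice 2, 4, 5 and 7. The lowest control (mouse 8) and the highest KO library (mouse 5) nearly met, and the log2 fold change of -0.23 ± 0.065 was just past the threshold (SE; edgeR, adjusted p = 0.0482). Leaving out single mice ended that call in edgeR, with an adjusted p of 0.138 without mouse 1, and likewise without 2 (0.137), 3 (0.111), 4 (0.130), 6 (0.0656) or 7 (0.131), and it was also lost with the prefix shared by sample titles as a block (0.0535), with KO mice 2, 4 and 7 summed (0.334), with a further sum of control mice 1 and 3 (0.537) and in mice 5 to 8 alone (log2 fold change -0.088, adjusted p = 0.756). Markers of mature oligodendrocytes did not share 1 direction in footprints, with 4 of 12 higher and 3 lower (1 and 3 with DESeq2), and in RNA 2 of 12 fell. Their summed footprints were 9396 to 9535 CPM in controls and 9290 to 9330 CPM in KO mice, and in RNA 5578 to 6143 CPM and 4993 to 5300.1 CPM. The part of these cells in the Tnr result was not tested.

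**Figure D2:**
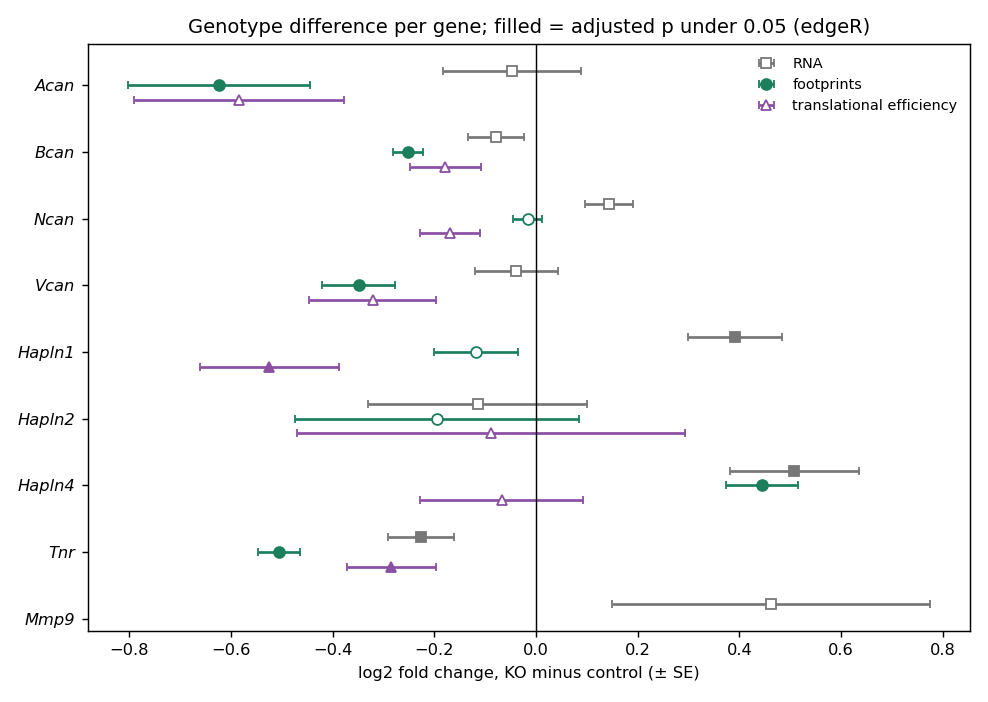
Log2 fold change (KO minus control, x axis) ± SE for each gene in RNA (grey squares), footprints (green circles) and translational efficiency (purple triangles); filled symbols passed an adjusted p of 0.05, and Mmp9 had too few footprints for a test. Hapln4 is to the right of 0 in RNA and footprints, Acan, Bcan, Vcan and Tnr are to the left in footprints, and Hapln1 is to the right in RNA and to the left in translational efficiency.

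Hapln4 (Bral2), a link protein of nets that works together with brevican, rose in both assays. Its footprints were at 57.7, 63.4 and 63.9 CPM in control mice 1, 3 and 9 and at 81.1, 90.5 and 81.7 CPM in KO mice 2, 4 and 10. All KO libraries were above all controls (log2 fold change 0.44 ± 0.070 SE, adjusted p = 1.98e-07, edgeR). Its RNA was at 15.9, 18.3, 24.1 and 20.2 CPM in control mice 1, 3, 6 and 8 and at 25.2, 27.7, 34.3 and 24.6 CPM in KO mice 2, 4, 5 and 7. The groups did not overlap, although control mouse 6 came close to KO mouse 7 (log2 fold change 0.51 ± 0.13 SE, adjusted p = 0.0273, edgeR). Hapln1 (Crtl1), the link protein needed for compact nets, rose in RNA. Its RNA was at 19.1, 18.9, 24.2 and 22.3 CPM in control mice 1, 3, 6 and 8 and at 28.6, 26.3, 29.9 and 26.1 CPM in KO mice 2, 4, 5 and 7, again without overlap (log2 fold change 0.39 ± 0.093 SE, adjusted p = 0.0217, edgeR). Of 8 excitatory neuron markers, 2 rose in RNA and none fell (2 and 1 with DESeq2), and their sum was 2780 to 2985 CPM in controls and 3247 to 3641 CPM in KO mice. The 2 were Camk2a, from 467 ± 62.0 to 786 ± 111 CPM (SD, n = 4 each), and the glutamate transporter gene Slc17a7, from 1447 ± 72.9 to 1659.9 ± 48.4 CPM. The markers that were not called lay on both sides of 0, among them Slc17a6 at -0.24 ± 0.073 (log2, SE; edgeR, adjusted p = 0.0620) and Grin2b at -0.12 ± 0.068 (adjusted p = 0.302), which were chosen after their values were seen. In footprints the sum of the 8 was 4839 to 4933 CPM in controls and 4522 to 4658 CPM in KO mice. There 2 rose, Neurod6 (0.26 ± 0.066, adjusted p = 0.00111, edgeR) and Slc17a7 (0.078 ± 0.024, adjusted p = 0.0110). The 2 that fell were Grin2b (-0.30 ± 0.036, adjusted p = 1.67e-11, edgeR) and Camk2a, from 3162 ± 52.4 to 2866 ± 50.4 CPM (SD, n = 3 each). Against its rise in RNA, Camk2a had a log2 fold change of -0.14 ± 0.019 in footprints (SE, adjusted p = 1.71e-09, edgeR) and -0.90 ± 0.12 in TE (adjusted p = 6.09e-05). The part of these cells in the link protein results was not tested.

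The RNA calls of both link proteins were lost when the near-identical libraries were summed. With KO mice 2, 4 and 7 summed, Hapln1 was at 0.42 ± 0.12 (SE, adjusted p = 0.146, edgeR) and Hapln4 at 0.60 ± 0.15 (SE, adjusted p = 0.122, edgeR). A further sum of control mice 1 and 3 gave adjusted p-values of 0.273 and 0.208 (edgeR), and mice 5 to 8 alone gave 0.431 and 0.282. Neither gene was called in edgeR without mouse 1 (adjusted p = 0.0680 for Hapln1 and 0.0776 for Hapln4), 2 (0.0740 and 0.0515), 3 (0.0597 and 0.0666) or 4 (0.0539 and 0.0751). In mice 5 to 8 alone the log2 fold changes were 0.26 and 0.41.

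Hapln1 footprints were at 62.4, 53.4 and 52.0 CPM in control mice 1, 3 and 9 and at 51.8, 48.3 and 53.1 CPM in KO mice 2, 4 and 10. Control mouse 1 was the high library, KO mouse 10 lay between the other controls, and the log2 fold change was -0.12 ± 0.082 (SE, adjusted p = 0.315, edgeR). Hapln2 (Bral1), a link protein of the matrix at nodes of Ranvier, was scarce, with 39 to 73 counts per RNA library and 12 to 30 per footprint library. Its log2 fold change was -0.11 ± 0.22 (SE, adjusted p = 0.798, edgeR) in RNA and -0.19 ± 0.28 (SE, adjusted p = 0.666, edgeR) in footprints. The approximate 95% interval of its fold was 0.689 to 1.24 in RNA and 0.598 to 1.28 in footprints.

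Each link protein was then set against its neighbouring lectican as a ratio of counts within a library, which does not depend on scaling between libraries. The Hapln4 count was 9.60%, 10.5% and 10.9% of the Ncan count in footprints of control mice 1, 3 and 9 and 13.5%, 15.8% and 13.7% in KO mice 2, 4 and 10. In RNA it was 3.74% ± 0.666 (SD, n = 4) in controls and 4.82% ± 0.740 (SD, n = 4) in KO mice, with overlap (exact two-sided permutation test, p = 0.0857). In RNA the Hapln1 count was 30.7% ± 7.03 of the Vcan count in controls and 41.0% ± 5.79 in KO mice (SD, n = 4 each), with overlap (exact two-sided permutation test, p = 0.0857). The Hapln1 count was 74.4%, 63.8% and 72.3% of the Vcan count in footprints of control mice 1, 3 and 9 and 81.0%, 81.7% and 82.4% in KO mice 2, 4 and 10. Neither footprint ratio overlapped between genotypes, and the exact two-sided permutation test gave p = 0.1 for each, the smallest possible with 3 against 3. The Hapln2 to Bcan ratio was 0.901% ± 0.167 (SD, n = 3) in control footprints and 0.951% ± 0.266 (SD, n = 3) in KO footprints, and its values overlapped in both assays. Hapln3 was at 7 to 13 footprint counts per library, and its ratio to Acan overlapped too. Over the 8 ratios tested, no exact p adjusted by Benjamini and Hochberg's method was below 0.2.

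**Figure D3:**
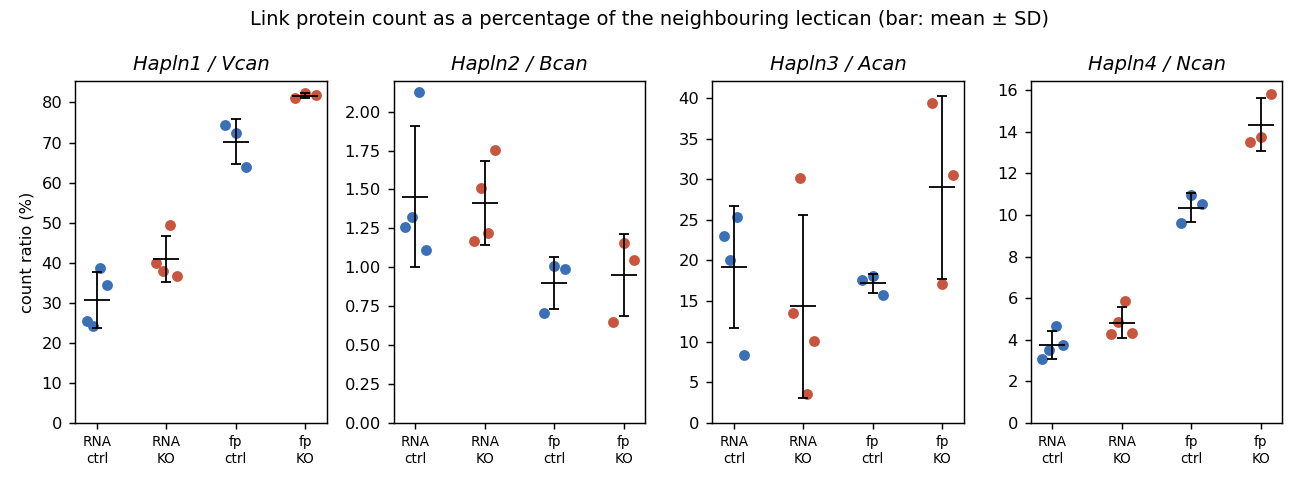
Count of each link protein as a percentage of the count of the lectican beside it in the genome (y axis), 1 point per library (blue, control; red, KO), with bars for the mean ± SD. In footprints the Hapln1 to Vcan and Hapln4 to Ncan ratios are higher in all 3 KO libraries than in any control, and the Hapln2 to Bcan and Hapln3 to Acan ratios overlap.

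Mmp9 was near the lower limit of detection in these cortices. Its RNA had 8, 4, 9 and 11 counts in control mice 1, 3, 6 and 8 and 11, 12, 11 and 12 in KO mice 2, 4, 5 and 7, or 0.415 to 1.07 CPM in controls and 1.05 to 1.28 CPM in KO mice. Control mouse 8 overlapped the KO libraries, and the log2 fold change was 0.46 ± 0.31 (SE; edgeR, adjusted p = 0.409), a fold of 1.38 with an approximate 95% interval of 0.900 to 2.11. Without control mouse 3, which had 4 counts, the log2 fold change was 0.25 ± 0.31 (SE; edgeR, adjusted p = 0.719), and in mice 5 to 8 alone it was 0.24 ± 0.49 (adjusted p = 0.891). The filter turns its minimum count of 10 into a level of 1.0004 CPM before TMM scaling, which all 4 KO libraries and 2 of 4 controls reached. Mmp9 footprints numbered 1, 4 and 10 in control mice 1, 3 and 9 and 2, 7 and 2 in KO mice 2, 4 and 10, and they were too few for a test. No difference of Mmp9 was detectable at this depth.

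Translational efficiency (TE), footprints relative to RNA of the same gene, asks whether ribosome occupancy changed beyond the mRNA. All 8 members tested had a fitted TE below control in KO mice (7 of 8 on plain library sizes, where Hapln4 turned), but 2 passed the test, Hapln1 and Tnr, both lower, against 7.81% of 12145 genes (3.40% higher and 4.41% lower). The median log2 fold change of the 8 was -0.23, against -0.011 over all genes tested. Hapln1 TE fell, with a log2 fold change of -0.52 ± 0.14 (SE; edgeR, adjusted p = 0.0200). Its RNA had risen and its footprints had not passed the test. Tnr TE fell by 0.28 ± 0.087 (SE, adjusted p = 0.0476, edgeR). The log2 fold change in TE of Acan was -0.58 ± 0.21 (SE, adjusted p = 0.0839, edgeR), of Vcan -0.32 ± 0.12 (adjusted p = 0.116), of Bcan -0.18 ± 0.070 (adjusted p = 0.125), of Ncan -0.17 ± 0.060 (adjusted p = 0.0843), of Hapln2 -0.089 ± 0.38 (adjusted p = 0.916) and of Hapln4 -0.067 ± 0.16 (adjusted p = 0.850).

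Mice 1 to 4 were in both assays, so TE was also fitted with the mouse as a replicate block, which rests on those 4 animals. The blocked fit called 1811 genes against 949, and 4 members, of which Hapln1 was at -0.75 ± 0.15 (SE, adjusted p = 2.13e-05, edgeR), Vcan at -0.34 ± 0.11 (adjusted p = 0.0193), Ncan at -0.21 ± 0.057 (adjusted p = 0.00415) and Bcan at -0.17 ± 0.061 (adjusted p = 0.0462). Tnr was not called with the block (-0.15 ± 0.071, adjusted p = 0.143, edgeR), nor was Acan (-0.38 ± 0.29, adjusted p = 0.425). In the fit with no block, edgeR no longer called Hapln1 TE without mouse 1 (adjusted p = 0.106), 2 (0.0862), 3 (0.0526) or 4 (0.0806), with the exon columns as RNA (0.0594) and with both sets of near-identical RNA libraries summed (0.0603). The Tnr call was lost without any mouse other than 1 or 8 (adjusted p = 0.0546 to 0.170, edgeR), on plain library sizes (0.112), with no filter on low counts (0.0562), with the title prefix as a block (0.0612) and with KO mice 2, 4 and 7 summed (0.0816). Ncan passed with DESeq2 (adjusted p = 0.0365) and without control mouse 8 (adjusted p = 0.0439, edgeR), and Vcan passed without KO mouse 5 (adjusted p = 0.0468, edgeR).

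The members also differed in footprints per RNA in control mice. Gene length cancels in the ratio of mean footprint CPM to mean RNA CPM only where both assays were counted over the same stretch of a gene, and the sources used here do not give that stretch. In controls it was 3.14 for Hapln4 (percentile 98.4 of 12145 genes), 2.65 for Hapln1 (97.2), 1.53 for Acan (82.9), 1.39 for Bcan (78.1), 1.14 for Vcan (65.1), 1.14 for Ncan (64.9), 0.861 for Hapln2 (46.1) and 0.860 for Tnr (46.1). The median gene was at 0.913. In KO mice the ratio was 3.02 for Hapln4 (98.7), 1.84 for Hapln1 (90.4), 1.02 for Acan (56.8) and 0.710 for Tnr (34.3). The order of the members depends on the RNA columns used. In the exon columns described below, mean control RNA was 42.3 CPM for Hapln4, 51.9 for Hapln1, 5.10 for Acan and 231 for Bcan. Their control footprints were at 61.7, 56.0, 12.6 and 509 CPM, so Acan and Bcan had more footprints per RNA there than Hapln4 and Hapln1. The ratios below use the same RNA columns as those above. Within the 4 mice measured in both assays, Hapln1 was at 3.28 and 2.83 in control mice 1 and 3 and at 1.81 and 1.83 in KO mice 2 and 4. Hapln4 was at 3.62 and 3.47 against 3.22 and 3.26, Acan at 1.38 and 1.47 against 1.09 and 1.12, and Vcan at 1.12 and 1.08 against 0.891 and 0.850. Tnr was at 0.764 and 0.815 against 0.742 and 0.695, with control mouse 1 close to KO mouse 2. Bcan was at 1.39 and 1.499 against 1.31 and 1.28, and Ncan at 1.15 and 1.16 against 1.02 and 1.004. Hapln2 overlapped between genotypes, at 0.782 and 1.12 in the control mice and 0.730 and 0.888 in the KO mice. With 2 mice per genotype these values carry no test.

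**Figure D4:**
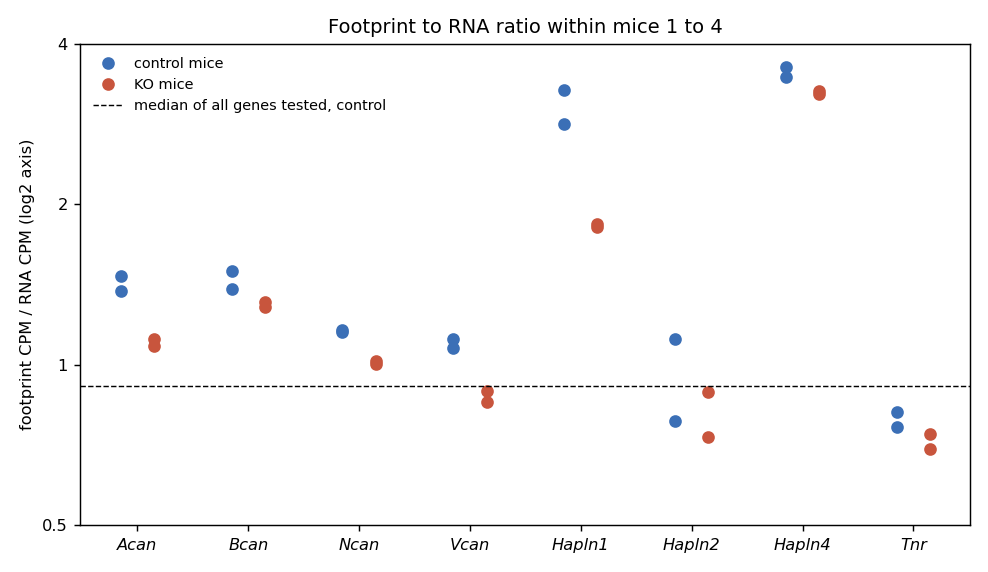
Ratio of footprint CPM to RNA CPM within mice 1 to 4 (y axis, log2 scale), 1 point per mouse (blue, control mice 1 and 3; red, KO mice 2 and 4); the dashed line is the median of all genes tested in controls, 0.913. Hapln4 and Hapln1 sit highest with the RNA columns plotted, an order that does not hold with the exon columns. The Hapln1 points of the KO mice (1.81 and 1.83) lie lower than those of the control mice (3.28 and 2.83).

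A second set of RNA columns, whose headers end in exon, gave larger totals for the same libraries. The RNA columns used above held 22.5% ± 4.76 (SD, n = 4) of the exon count of Hapln1 and 25.5% ± 3.46 (SD, n = 4) of that of Hapln4 in controls, among the lowest shares of all genes (percentiles 5.12 and 6.63, median 65.6%). They held 87.8% ± 5.01 of the count of Acan and 86.0% ± 1.25 of that of Bcan (SD, n = 4 each). In the exon columns the same 3 members were called, at a background of 8.55% of 14566 genes (4.21% higher and 4.35% lower). Hapln1 rose by 0.26 ± 0.070 (log2, SE; edgeR, adjusted p = 0.0388), Hapln4 rose by 0.44 ± 0.12 (adjusted p = 0.0353) and Tnr fell by 0.19 ± 0.052 (adjusted p = 0.0377). For Hapln1 the share was 24.6% ± 0.844 in KO mice and for Hapln4 26.8% ± 4.45 (SD, n = 4 each), within the spread of the controls (exact two-sided permutation test, p = 0.4 and 0.714).

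Other genes of the net were taken from lists written from general knowledge. Of 18 tested partners of lecticans (receptors, other proteoglycans and matrix glycoproteins), 9 fell and 1 rose in footprints (in the order fell and rose, 9 and 2 on plain library sizes, 10 and 1 with edgeR on DESeq2's size factors, and 9 and 0 with the DESeq2 test), with a median log2 fold change of -0.18. Tenascin-C (Tnc), a relative of Tnr, fell by 0.84 ± 0.16 (log2, SE; edgeR, adjusted p = 1.93e-05), from 17.9 ± 0.712 to 9.98 ± 2.64 CPM (SD, n = 3 each). Fibronectin (Fn1) fell by 0.44 ± 0.049 (adjusted p = 1.70e-12), the NG2 proteoglycan Cspg4, which is also on the list of oligodendrocyte precursor markers, by 0.41 ± 0.069 (adjusted p = 8.54e-07) and the receptor phosphatase Ptprf by 0.40 ± 0.053 (adjusted p = 8.14e-10). In RNA none of the 18 was called by edgeR or DESeq2, and 3 had an unadjusted p under 0.05. In TE 4 were called, all lower: Ptprf (-0.39 ± 0.081 SE, adjusted p = 0.00392, edgeR), Cspg4 (-0.37 ± 0.094, adjusted p = 0.0180), Ptprz1 (-0.27 ± 0.079, adjusted p = 0.0397), a phosphatase that binds lecticans and tenascins, and Ptprs (-0.27 ± 0.064, adjusted p = 0.0126), a receptor for chondroitin sulfate.

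Genes that make the sugar chains were tested as well. Of 19 tested genes of chondroitin sulfate synthesis none was called in footprints by edgeR or DESeq2 and none had an unadjusted p under 0.05, with a median log2 fold change of -0.046 (0.014 on plain library sizes). In RNA 1 of 21 was called, the sulfotransferase Chst15, which fell by 0.31 ± 0.074 (SE, adjusted p = 0.0225, edgeR). Of the hyaluronan genes, 2 of 6 fell in footprints and 1 of 9 fell in RNA. Cd44, a hyaluronan receptor, fell in both, from 12.7 ± 1.5 to 7.98 ± 2.16 CPM in footprints (SD, n = 3 each; log2 fold change -0.67 ± 0.19 SE, adjusted p = 0.00359, edgeR) and by 0.61 ± 0.14 in RNA (adjusted p = 0.0184, edgeR). Stab1, a scavenger receptor gene on the same list, fell by 0.45 ± 0.11 in footprints (SE, adjusted p = 0.000594, edgeR).

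Among 24 matrix proteases and inhibitors tested in footprints, 5 rose and 3 fell (6 and 3 on plain library sizes), with a median log2 fold change of 0.034 (0.094 on plain library sizes). Adamts1, which cleaves aggrecan and versican, rose by 0.67 ± 0.13 (log2, SE; edgeR, adjusted p = 1.67e-05), from 16.5 ± 1.16 to 26.2 ± 2.80 CPM (SD, n = 3 each). The membrane-type metalloprotease Mmp24 rose by 0.41 ± 0.14 (adjusted p = 0.0196), and its relative Mmp15 fell by 0.54 ± 0.11 (adjusted p = 8.62e-05). Adamts9, another versican-cleaving protease, fell by 1.25 ± 0.41 (adjusted p = 0.0159), from 3.10 ± 0.506 to 1.26 ± 0.318 CPM (SD, n = 3 each). With DESeq2, 3 proteases or inhibitors were called higher and 2 lower. In RNA 3 of 26 fell and 1 rose: Mmp14 (-0.42 ± 0.11 SE, adjusted p = 0.0293, edgeR), tissue plasminogen activator Plat (-0.38 ± 0.066, adjusted p = 0.00424) and the inhibitor Timp2 (-0.30 ± 0.065, adjusted p = 0.0148) were lower, and Mmp17 was higher (0.24 ± 0.059, adjusted p = 0.0237).

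**Figure D5:**
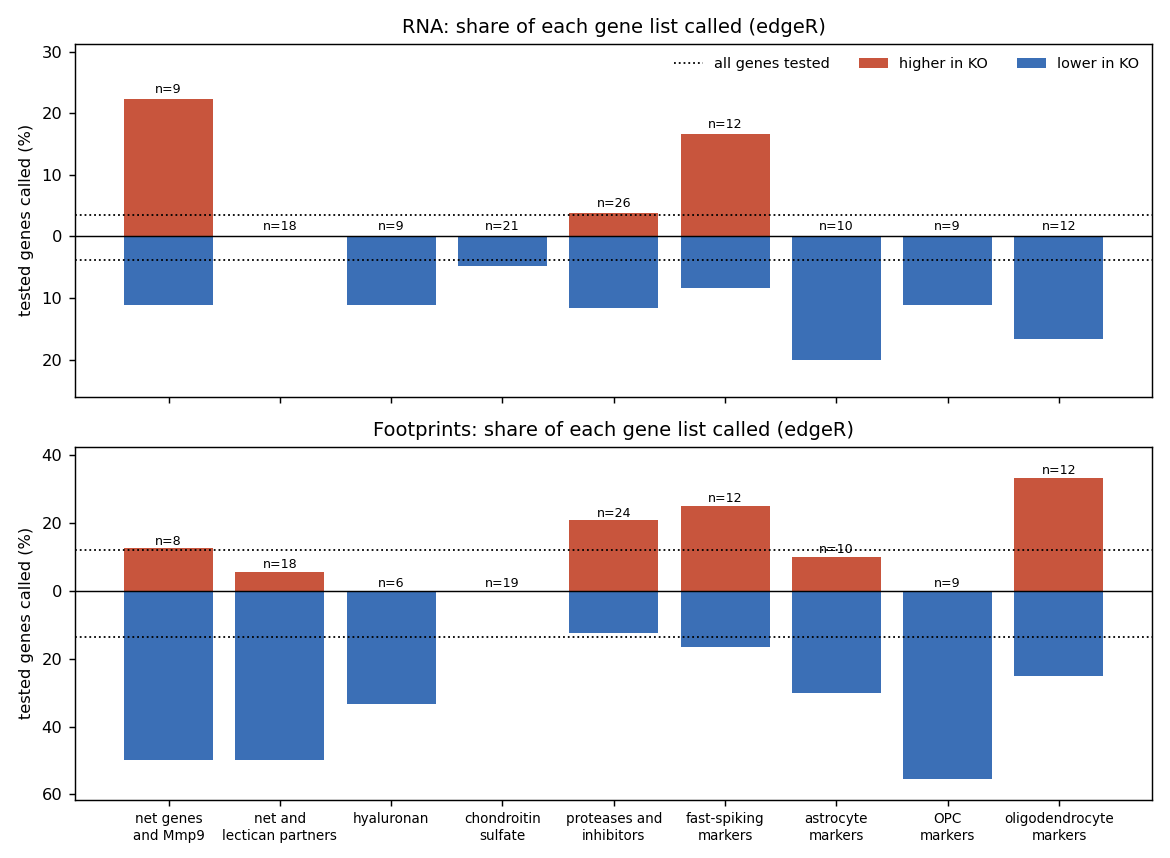
Share of the tested genes of each list that were called higher (red, upwards) or lower (blue, downwards) in KO mice, in RNA (top) and footprints (bottom); n is the number tested, OPC stands for oligodendrocyte precursor, and dotted lines give the shares over all genes tested (3.53% higher and 3.88% lower in RNA, 11.9% and 13.6% in footprints). In footprints the net genes (4 of 8), their partners (9 of 18) and OPC markers (5 of 9) had the deepest downward bars.

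The neurons that carry nets were read from 12 markers of fast-spiking interneurons. In footprints 3 rose and 2 fell (1 and 2 with DESeq2), with a median log2 fold change of -0.0069 (0.053 on plain library sizes), and their summed level was 1677 to 1729 CPM in controls and 1658 to 1692 CPM in KO mice. In footprints the neuropeptide precursor gene Tac1 rose by 0.38 ± 0.068 (log2, SE; edgeR, adjusted p = 3.62e-06), Kcnab3, a potassium channel subunit, rose by 0.25 ± 0.087 (adjusted p = 0.0251) and the neuregulin receptor gene Erbb4 fell by 0.23 ± 0.059 (adjusted p = 0.00146). Gad2, an enzyme of GABA synthesis, was the other marker that fell (log2 fold change -0.18, adjusted p = 3.83e-06, edgeR); it was chosen after its values were seen. Pvalb, which encodes parvalbumin, rose by 0.20 ± 0.067 in footprints (SE, adjusted p = 0.0188, edgeR) but fell by 0.35 ± 0.075 in RNA (adjusted p = 0.0137) and rose by 0.54 ± 0.11 in TE (adjusted p = 0.00234). In RNA 2 of the 12 rose and 1 fell, and in TE 1 rose and 1 fell. Slc32a1, the vesicular GABA transporter, moved opposite to Pvalb in RNA and TE. It rose by 0.56 ± 0.069 in RNA (SE, adjusted p = 0.000413, edgeR), and its log2 fold change in TE was -0.58 ± 0.085 (adjusted p = 0.000168). Its footprints did not pass the test (log2 fold change -0.0086 ± 0.039, adjusted p = 0.903, edgeR). Kcnab3 rose by 0.29 ± 0.070 in RNA (adjusted p = 0.0239). Of 10 astrocyte markers, 3 fell and 1 rose in footprints (2 and 2 on plain library sizes), and 2 fell in RNA. Their sum was 6499 to 6583 CPM in controls and 6447 to 6485 CPM in KO mice in footprints, and 3879 to 4341 CPM and 4045 to 4851 CPM in RNA. The part of these cells in the lectican results was not tested.

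The members did not share 1 pattern across libraries. Over the 14 libraries, with log2 CPM centred within each assay, Acan and Tnr had a Pearson's r of 0.86, Acan and Bcan 0.79, and Hapln1 and Ncan 0.86, while Hapln4 had -0.79 with Tnr and -0.74 with Vcan. These values describe libraries that share a genotype difference and a depth, and carry no test. By the same measure, the genes most like each member among 8900 candidates were Chd3 (r = 0.967) for Acan, Sorl1 (0.966) and Ncam1 (0.963) for Bcan, Wdr6 (0.972) and D10Bwg1379e (0.969) for Tnr, Gsn (0.957) and Nat8l (0.953) for Hapln4, Dynll2 (0.940) and Ywhaz (0.932) for Ncan, Nup93 (0.921) and Sf3b1 (0.920) for Vcan, and Slc25a3 (0.911) and Tmcc3 (0.898) for Hapln1.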

How the data were processed

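The authors deposited 1 table of whole-number counts per gene, with no normalization. The submitters' processing notes name Bowtie2, STAR 2.5, featureCounts and Subread 1.4.6 and the builds mm9 and mm10, with no role for each; the region counted and the strand setting are not given in the sources used here. The RNA columns with no suffix served for RNA, as they hold values for the same set of genes as the footprint columns. Columns were matched to samples by title, and the genotype and mouse number came from the labels.

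Counts were tested with edgeR 4.0.16 (R 4.3.3): TMM scaling, filterByExpr with a minimum count of 10, quasi-likelihood F tests, two-sided, adjusted by Benjamini and Hochberg's method over all genes tested. TE was the interaction of genotype and assay over all 14 libraries. SEs were derived from the F statistic. DESeq2 1.42.0 was an alternative. The same mouse number in both assays marks the same animal per the labels; over 12145 genes, deviations from the group means correlated between the assays of a mouse at only -0.013 to 0.034. The scripts were tested on simulated data. Within an assay each library has its own mouse number per the labels. For the RNA of KO mice 2, 4 and 7 the counts leave doubt that the animals were separate, and for the footprints they do not settle it. Error from PCR copies is not covered by counting noise. The members and gene lists were chosen with earlier results of these data known. Besides the members, genes were named by rule: at most the 4 largest called changes per list and assay, and the 2 genes most like each member with at least 5 CPM (candidates had at least 10 CPM); 1 gene that this rule gives is not reported here. Neighbouring link protein and lectican genes were named together, with Hapln3; their count ratios, the exon shares and the motifs were added after the files were seen. A block on the sample titles' prefix was an alternative. Markers of microglia, endothelium and excitatory neurons were also examined: in footprints 0 of 10 rose and 1 fell, 2 of 8 rose and 1 fell, and 2 of 8 rose and 2 fell; in RNA 0 rose and 2 of 10 fell, none of 8 was called (edgeR and DESeq2; none at an unadjusted p under 0.05), and 2 of 8 rose and none fell.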

Additional observations from a re-analysis of the deposited data

Results flagged for a closer look

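In each RNA group of 4 mice, the members and the library totals were screened for 1 library that stood off from the other 3 (20 groups in all, of which chance gives about 1), and 2 were found. Hapln2 RNA was at 8.08 CPM in control mouse 6 against 4.19 to 4.56 CPM in the other controls, and this gap was 0.905 of the group's range, above Dixon's 95% critical value. It rests on 73 counts against 43 to 45. Tnr RNA was at 263 CPM in KO mouse 5 against 249 to 251 CPM in KO mice 2, 4 and 7, a gap of 0.847 of the range; those 3 libraries were nearly identical to each other across all genes, and the part of this in the gap was not tested.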

How the results depend on the processing

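In footprints, Bcan, Vcan, Hapln4 and Tnr kept their direction and call in all 11 alternatives, and Acan in 10 of 11 (DESeq2 was the exception). The count of genes called in footprints was 3102, and 1821 with DESeq2. On plain library sizes 66.3% of footprint calls were higher, against 46.7% with TMM, and in TE 68.2% against 43.5%; the same 5 members were called in footprints. The count of genes called moved most in RNA, and the members' calls moved in both RNA and TE. Genes called in RNA were 1001, and 79 with KO mice 2, 4 and 7 summed, 36 with control mice 1 and 3 also summed, 88 in mice 5 to 8 alone and 3063 without control mouse 8 and KO mouse 5 (the sum with controls and this last setting were chosen after the data were seen); leaving out 1 mouse gave 356 to 1763. Members called in RNA were 3, and 0 by edgeR with KO mice 2, 4 and 7 summed, with both sums and in mice 5 to 8 (4, 2 and 1 at an unadjusted p under 0.05; DESeq2 was not run there); leaving out 1 mouse gave 0 to 4 (0 without mouse 1, 2, 3 or 4, with 4 unadjusted each). The cause was not tested, but the sums hold fewer libraries. TE called 949 genes, 543 with KO mice 2, 4 and 7 summed, 579 with both sums, 1811 with the mouse as a replicate block and 419 to 1289 without 1 mouse. Members called in TE were 2, and 1 on plain library sizes, with no filter, with the title prefix block, with either sum and with the exon columns, 4 with the replicate block and 0 to 3 without 1 mouse (0 without mouse 2, 3 or 4, with 5 or 6 unadjusted). The block changed no call of Acan, Hapln1, Hapln2 or Hapln4 in TE.

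Signs turned only in members that were not called. In RNA, Acan was at 0.019 with KO mice 2, 4 and 7 summed, 0.039 with both sums, 0.20 in mice 5 to 8 and 0.0013 without KO mouse 4 (-0.14 to 0.0013 without 1 mouse). Vcan RNA was at 0.048 in mice 5 to 8 and 0.015 and 0.017 without control mouse 3 or KO mouse 5 (-0.089 to 0.017), and Hapln2 RNA at 0.14 without control mouse 6 (-0.23 to 0.14). Ncan footprints were at 0.043 on plain library sizes and 0.0043 without KO mouse 4 (-0.034 to 0.0043). In TE, Hapln4 was at 0.00094 on plain library sizes, 0.016 with the exon columns and 0.040 without KO mouse 5 (-0.18 to 0.040), and Hapln2 at 0.0081 to 0.053 without mouse 2, 3, 7 or 8 (-0.35 to 0.053). Mmp9 rested on 1 to 12 counts per library, Hapln2 on 12 to 73 and Acan footprints on 33 to 76; depth was not varied.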
